A study of Mus musculus with 33 samples.

Results

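Spleen cells of BALB/c mice were put in culture with nothing added, and the change in their RNA between 2 h and 4 h in medium alone is described here from 8 of the series' 33 arrays, 4 at each time. The members were taken by title, as the arrays of cells kept in medium alone for 2 h or for 4 h. The mice were females aged 2 months, the cells were whole spleen suspensions in complete RPMI with serum, and the cultures had no oligonucleotide, the study's purpose for them being to account for handling and culture. The same study treated parallel cultures with 1 uM of a CpG oligodeoxynucleotide (CpG ODN, a short synthetic DNA with unmethylated CpG motifs) or of an ODN without such motifs (control ODN), and these are used below only for comparison. Each value is a log ratio of Cy5-labelled spleen cell cDNA over Cy3-labelled cDNA of a common reference RNA from several mouse tissues and cell types, so the reference drops out of a difference between times. The log base is not stated; it was taken as 2 from the range of the values, and a log2 difference of 1 is then a 2-fold change. The labels speak of independent experiments but do not say whether a repeat pooled animals, so p-values measure the spread between arrays. In the limma fits that spread was estimated over the arrays of all 9 groups, unless stated otherwise.

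A spleen suspension holds mainly B and T lymphocytes, with fewer macrophages, dendritic cells, granulocytes and erythroid cells. Taking a spleen apart and placing its cells in medium removes tissue contacts, blood flow and stromal signals, and it sets off immediate early genes such as Fos, Jun and Egr1 within minutes in many cell types. Resident splenic macrophages take up dying cells and recycle iron, and they are a main source of complement C1q. In these bulk RNA samples, fewer cells of a type and less of an RNA per cell cannot be told apart.

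The arrays measured between 9696 and 11127 probes each, on average 10341 ± 512 (SD, n = 4) at 2 h and 10878 ± 252 (SD, n = 4) at 4 h, a difference that did not pass a two-sided exact permutation test (p = 0.143, where 4 against 4 cannot go below 0.0286). Correlations between the 8 arrays ran from 0.773 to 0.920, and no pair was identical. The mean level of 13 B cell markers measured on all 8 arrays lay between 2.28 and 2.63 and that of 8 T cell markers between 2.05 and 2.47, against -1.15 to -0.53 for 4 markers of other tissues in the reference. Markers of neutrophils and myeloid precursors set some arrays of both times apart: 8 such genes averaged 3.17 on 2 h repeat 2 and 3.26 and 3.56 on 4 h repeats 2 and 3, against 1.70 to 2.14 on the other arrays. The same arrays stood apart for 6 erythroid markers, at 2.97, 2.79 and 2.65, against 1.71 to 2.20 on the others. The title of 4 h repeat 1 carries a much earlier database number than those of the other 7, and no slide or scan date is given.

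Between 2 h and 4 h, 108 genes rose and 43 fell among 9560 tested, at an adjusted p below 0.05 in a limma fit over all 9 groups with Benjamini-Hochberg adjustment. These are 1.58% of the genes tested, with 1.13% higher and 0.450% lower, and 1261 genes (13.2%) had an unadjusted p below 0.05. The falls with the lowest p-values were those of Cfp, Hfe, C1qb, Fcna and Vcam1. Cfp, C1qb and Fcna are complement genes, and Vcam1 encodes an adhesion molecule. C1qb and Vcam1 were on the list of monocyte and macrophage markers, of which 3 of 16 tested were called. The largest rise was that of Wtap, a subunit of the RNA m6A methyltransferase complex. The rises with the lowest p-values were those of Rpp25, a subunit of ribonuclease P, Itfg1, which encodes an integrin-alpha repeat protein, Ero1a, an oxidase of the endoplasmic reticulum, and the kinase gene Dyrk2. The change reached 1 log2 unit for 72 of the 108 rises and 33 of the 43 falls. It reached 2 log2 units for 1 rise and 5 falls. The called rises went from a median level of 0.08 at 2 h to 1.34 at 4 h, and the called falls from 1.08 to -0.19. The values of the 2 groups did not overlap for 104 of the 108 rises and 39 of the 43 falls, while over all genes tested this held for 6.74% in the higher direction and 3.89% in the lower. The median difference over all genes tested was 0.03.

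How many genes were called depended on single arrays. With 1 array left out at a time the count ran from 44 to 216: it was 44 without 4 h repeat 1, 54 without 2 h repeat 4, 57 without 4 h repeat 2 and 74 without 2 h repeat 3, against 151 with all. In each of the 8 such fits, 21 of the 108 rises and 9 of the 43 falls were called. A fit on the 8 arrays alone, which has fewer arrays to estimate the spread from, called 4 genes, all of them falls: C1qb, Fcna, Cfp and Hfe. The genes described below are given first where they were called in all 8 of those fits.

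The falls that every such fit called were C1qb, Fcna, Cfp, Vcam1, Antxr2, Axl, Hfe, Lgals3bp and Aif1. Cfp encodes properdin, the positive regulator of the alternative complement pathway. Its log2 ratio was 2.77, 2.48, 2.28 and 2.45 in 2 h repeats 1 to 4 and 1.12, 0.84, 0.97 and 1.16 in 4 h repeats 1 to 4. All arrays at 4 h lay more than 1 log2 unit below all arrays at 2 h. Cfp fell by 1.47 ± 0.16 on the log2 scale (SE from limma, adjusted p = 4.2e-06), 2.78-fold.

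C1qb encodes the B chain of C1q, the recognition molecule of the classical complement pathway. It was measured on repeats 1 to 3 at each time, at 5.65, 5.60 and 5.35 at 2 h and at 3.50, 3.04 and 3.57 at 4 h. Its RNA was far above the reference at both times, and the groups did not overlap. The fall was 4.48-fold (log2 difference -2.16 ± 0.24, SE from limma, adjusted p = 1.32e-05). C1qc, the gene of the C chain, stood at 3.72, 3.37, 3.40 and 3.28 at 2 h and at 2.59, 2.03, 2.63 and 1.96 at 4 h, again without overlap. Its log2 difference was -1.14 ± 0.26 (SE, limma adjusted p = 0.0169), and the call held in 5 of the 8 fits that left out 1 array (adjusted p up to 0.0834, without 4 h repeat 2). The A chain gene C1qa had a log2 difference of -1.23 with an unadjusted limma p of 0.0673 and was not called.

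Fcna encodes ficolin A, a lectin that starts the lectin pathway of complement and that macrophages of spleen and liver express. Its ratios were 3.89, 4.18, 3.85 and 3.92 at 2 h and 2.75, 2.31, 1.97 and 2.69 at 4 h. The groups lay apart by more than 1 log2 unit, and the log2 difference was -1.53 ± 0.21 (SE, limma adjusted p = 0.000107). C6, a component of the membrane attack complex, had ratios of 1.43, 2.69, 2.27 and 1.92 at 2 h and 0.70, 1.36, 1.00 and 0.98 at 4 h. The lowest array at 2 h was just above the highest at 4 h. Its log2 difference was -1.07 ± 0.24 (SE, limma adjusted p = 0.0157), called in 5 of the 8 fits that left out 1 array (adjusted p up to 0.0751, without 4 h repeat 1).

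Vcam1, the adhesion molecule through which resident macrophages and stroma hold other cells, was at 0.97, 1.58, 0.89 and 0.91 at 2 h and at 0.03, -0.35, -0.32 and -0.64 at 4 h. Repeat 2 stood above the other arrays at 2 h, and the groups did not overlap with or without it. The log2 difference was -1.40 ± 0.21 (SE, limma adjusted p = 0.000411). Axl, a receptor tyrosine kinase with which macrophages recognise dying cells, lay below the reference throughout, at -1.56, -0.85, -1.53 and -1.58 at 2 h and -2.16, -2.79, -2.55 and -3.11 at 4 h. It fell by 1.27 ± 0.24 on the log2 scale (SE, limma adjusted p = 0.00581), again without overlap.

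Hfe, Lgals3bp and Aif1 are named after their values were seen. Hfe encodes the haemochromatosis protein, which takes part in iron sensing. It was at 0.46, 0.37, 0.41 and 0.31 at 2 h and at -0.69, -0.88, -0.73 and -1.06 at 4 h, with less scatter at 2 h than most genes described here. The log2 difference of -1.22 ± 0.14 (SE, limma) had an adjusted p of 4.2e-06. Aif1, whose product is the macrophage marker known as Iba1, went from 2.45, 2.68, 2.16 and 2.49 to 1.21, 1.81, 1.59 and 1.50 without overlap (log2 difference -0.92, limma adjusted p = 0.00471). Lgals3bp, a secreted galectin-binding glycoprotein, had a log2 difference of -1.17 with a limma adjusted p of 0.00139. Antxr2, a receptor for collagen and for anthrax toxin, was at 1.31, 1.07, 1.15 and 1.48 at 2 h and at 0.46, -0.20, -0.12 and -0.34 at 4 h, and fell by 1.30 ± 0.26 (log2, SE, limma adjusted p = 0.00742).

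**Figure D1:**
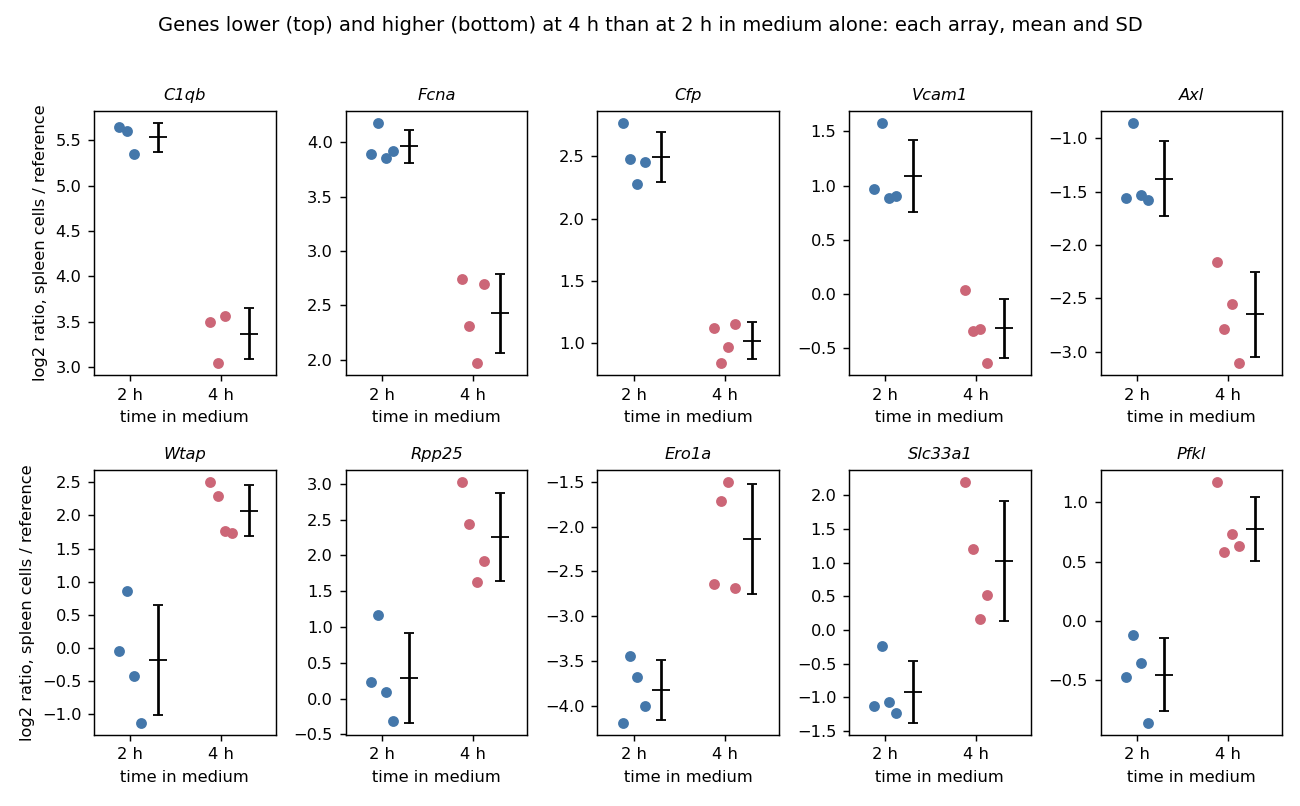
Log2 ratio over the reference (vertical axes, 1 scale per gene) of 5 genes that fell and 5 that rose, on each array of medium at 2 h and 4 h, with the mean and SD beside the points. In none of the 10 genes do the points of the 2 times overlap; the C1qb panel has 3 points per time, the others 4.

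Called genes were a minority of the listed macrophage markers, and most of the list had values below 0. Of 16 markers of monocytes and macrophages tested, 3 fell (C1qb, C1qc and Vcam1) and 0 rose, while 0.450% of all genes were called lower. Without 4 h repeat 1, 3 fell too. Values above 0 were seen for 5 of the 16, against 53.9% of all genes, and 5 had an unadjusted limma p below 0.05, against 13.2%. The median log2 difference of the list was -0.19 against 0.03 over all genes. With the control ODN, 3 of 16 were above 0 and the median was -0.53. With the CpG ODN, 2 of 16 were above 0 and it was -0.47. The values that follow are those in medium. The mean level of the 13 markers measured on all 8 arrays was 0.86 to 1.09 at 2 h and 0.58 to 0.93 at 4 h, so the groups overlapped. Cd68, a lysosomal glycoprotein of phagocytes, had a log2 difference of 0.04 and Marco, a scavenger receptor of the marginal zone, one of -0.18. Adgre1, the gene of the F4/80 antigen, stood at -0.40, and Spic, the transcription factor of red pulp macrophages, at -0.68. Among the values above 0 were those of Cd14, a co-receptor for lipopolysaccharide, at 0.52 and of the haemoglobin scavenger receptor Cd163 at 0.69. None of these 6 was called. Whether part of the falls came from a loss of macrophages from the suspension was not tested.

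Promoter windows of the called falls C1qb, C1qc, Fcna and Cfp were searched, and sequence is shown for the 3 that held a match. The myeloid factor PU.1 binds purine-rich sites, and the letters GAGGAA, searched on both strands, are in capitals in the 250 bases before the gene start, from RefSeq on GRCm38.p6. C1qb (chr4:136886201-136886450, minus strand) held 1 match, starting 30 bases before the start, and C1qc (chr4:136892915-136893164, minus strand) held 1, starting 193 bases before it. Fcna (chr2:25627975-25628224, minus strand) held 3, and Cfp, whose window was searched too, held 0.
C1qb: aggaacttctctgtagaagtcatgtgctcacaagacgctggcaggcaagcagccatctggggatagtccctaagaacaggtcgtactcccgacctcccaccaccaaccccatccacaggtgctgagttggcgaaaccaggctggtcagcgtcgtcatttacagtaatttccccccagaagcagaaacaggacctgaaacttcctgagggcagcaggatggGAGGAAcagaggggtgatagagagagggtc
C1qc: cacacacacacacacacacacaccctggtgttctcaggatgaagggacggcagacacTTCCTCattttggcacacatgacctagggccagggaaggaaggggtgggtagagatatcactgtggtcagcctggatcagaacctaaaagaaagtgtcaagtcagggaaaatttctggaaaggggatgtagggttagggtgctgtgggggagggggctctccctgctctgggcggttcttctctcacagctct
Fcna: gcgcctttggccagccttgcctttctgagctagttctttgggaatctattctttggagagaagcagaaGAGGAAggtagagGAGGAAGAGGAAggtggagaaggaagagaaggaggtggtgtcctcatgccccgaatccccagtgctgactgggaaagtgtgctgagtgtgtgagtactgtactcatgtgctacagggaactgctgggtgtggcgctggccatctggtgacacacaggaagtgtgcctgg
The letters occurred in 12 of the 33 called falls with a window in the table (36.4%), in 6 of 83 called rises (7.23%) and in 7639 of all 32851 windows (23.3%), taking the first window of each called gene. A match is a string of letters and not a measured binding site, and these shares were not tested.

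Other large falls rested on few or scattered arrays at 2 h. Polr1a, the largest subunit of RNA polymerase I, had the largest log2 difference, -3.28 ± 0.76 (SE, limma adjusted p = 0.0244), from 1.51 and 5.45 on the 2 arrays that measured it at 2 h and 0.03, 0.01 and 0.57 on 3 arrays at 4 h. Mak, a kinase of male germ cells, was at 1.88, 4.31, 5.81 and 4.25 at 2 h and at 1.38, 0.77, 0.97 and 1.24 at 4 h (limma adjusted p = 0.0165). Both kept a steady level at 4 h and were far apart at 2 h. Leaving out 1 array ended the call of Mak in 4 of the 8 fits (adjusted p up to 0.0869, without 2 h repeat 3) and that of Polr1a in 2 of those that could test it (up to 0.0924, without 4 h repeat 2). Strada, Nupr1l, Igbp1 and Ceacam9 were the remaining falls among the 10 largest on all 8 arrays, with log2 differences from -1.77 for Nupr1l to -1.24 for Ceacam9, and each lost its call in at least 1 such fit. Their highest adjusted p-values were 0.137 for Nupr1l (without 2 h repeat 4), 0.106 for Igbp1 (without 4 h repeat 2), 0.0776 for Strada (without 2 h repeat 3) and 0.0548 for Ceacam9 (without 4 h repeat 1). A further probe of Strada, an activator of the kinase LKB1, gave 0.54 against -1.57 for the chosen probe. Of 11 called genes with several tested probes, 5 had another probe of opposite sign: Strada and the rises Atat1, Ccdc30, Crls1 and Pdzd11.

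Among the rises, Wtap showed the largest difference. It was at -0.04, 0.86, -0.42 and -1.12 at 2 h and at 2.50, 2.29, 1.76 and 1.74 at 4 h. Its 2 h arrays spread over about 2 log2 units, but all lay below those at 4 h. The rise was 4.78-fold (log2 difference 2.26 ± 0.36, SE from limma, adjusted p = 0.000814). Rpp25 went from 0.23, 1.17, 0.09 and -0.32 to 3.02, 2.44, 1.62 and 1.92, also without overlap, a log2 difference of 1.96 ± 0.30 (SE, limma adjusted p = 0.000476).

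Ero1a, which reoxidises protein disulphide isomerase in the endoplasmic reticulum and is a known target of the hypoxia-inducible factor, was far below the reference at both times. Its ratios were -4.19, -3.44, -3.67 and -4.01 at 2 h and -2.64, -1.71, -1.51 and -2.68 at 4 h. The groups lay apart, with more scatter at 4 h, and the rise was 1.69 ± 0.27 on the log2 scale (SE, limma adjusted p = 0.000623). Its promoter is shown for ACGTG, a form of the core of the hypoxia response element, searched on both strands and in capitals. The window is the 250 bases before the start (chr14:45318573-45318822, minus strand, RefSeq, GRCm38.p6), where 1 match starts 63 bases before the start. Other forms of the core were not searched.
Ero1a: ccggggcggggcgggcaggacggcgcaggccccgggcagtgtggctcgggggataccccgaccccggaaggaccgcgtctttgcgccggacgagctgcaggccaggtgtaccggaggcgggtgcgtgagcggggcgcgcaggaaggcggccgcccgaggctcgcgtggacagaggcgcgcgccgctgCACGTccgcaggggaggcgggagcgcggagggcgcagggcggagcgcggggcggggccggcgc
These letters were found in 16 of 83 called rises (19.3%), 5 of 33 called falls (15.2%) and 5444 of 32851 windows (16.6%), so the called genes held them at about the general rate.

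Slc33a1, the acetyl-CoA transporter of the endoplasmic reticulum, rose by 1.94 ± 0.37 (log2, SE, limma adjusted p = 0.0052), from -1.14, -0.24, -1.08 and -1.23 to 2.19, 1.20, 0.16 and 0.52. Its arrays at 4 h were widely spread, with repeat 1 highest, and the adjusted p was 0.0436 without that array. Itfg1, named after its values were seen, rose from -0.16, -0.48, -0.39 and -0.66 to 1.16, 0.78, 0.36 and 1.05 without overlap (log2 difference 1.26, limma adjusted p = 0.000619). Dyrk2, a protein kinase of the p53 pathway also named after its values were seen, was steadier, at 0.62, 0.27, 0.46 and 0.34 and then 1.44, 1.58, 1.23 and 1.26. Its log2 difference was 0.96 with a limma adjusted p of 0.000623. C3ar1, the receptor for the complement fragment C3a, also named after its values were seen, rose from -0.50, -0.19, -0.29 and -0.53 to 1.47, 0.81, 0.51 and 0.51 (log2 difference 1.20, limma adjusted p = 0.00269). C4bp, a regulator of complement, rose as well, by 1.24 (log2, limma adjusted p = 0.0135), with the call held in 5 of the 8 fits that left out 1 array (adjusted p up to 0.101, without 2 h repeat 4). Complement genes thus stood on both sides, and they were grouped after their values were seen, with no list of the pathway.

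Of the other rises among the 10 largest, Hnrnpll, a splicing regulator of lymphocytes, rose by 1.77 (limma adjusted p = 0.00674) and Phex, a membrane peptidase, by 1.63 (limma adjusted p = 0.00817). Without 4 h repeat 1 their adjusted p-values were 0.0505 and 0.0511. A further probe of Hnrnpll gave 0.10. Ttc30b, Fabp3, Dnm1 and 3110070M22Rik rose by 1.70, 1.56, 1.57 and 1.58, and their calls were lost in 4, 4, 6 and 2 of the 8 fits that left out 1 array. The highest adjusted p-values there were 0.115 for Ttc30b and 0.0813 for 3110070M22Rik without 4 h repeat 1, and 0.112 for Fabp3 and 0.219 for Dnm1 without 2 h repeat 4. Ttc30b takes part in transport within cilia, Fabp3 binds fatty acids in heart and muscle, and Dnm1 is the dynamin of neurons.

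The called rises also shared a pattern among the arrays of 1 time. On the 97 called rises measured on all 8 arrays, 4 h repeat 1 was the highest of its group for 62 (63.9%), against 26.1% of the 6751 genes on all 8 arrays. The 2 h repeats 1 and 2 both lay above repeats 3 and 4 for 43 of the 97 (44.3%), against 22.9%. Among 28 called falls on all 8 arrays, 4 h repeat 1 was also the highest for 15 (53.6%). The fit without 4 h repeat 1 called 30 rises and 14 falls. Its part in the single calls, beyond the values given here, was not tested.

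The lists of other pathways held 0 to 2 rises each, while 1.13% of all genes tested were called higher. In glycolysis and hypoxia response, 1 of 23 tested genes rose: Pfkl, the liver-type subunit of phosphofructokinase, which commits sugar to glycolysis. It was at -0.48, -0.12, -0.36 and -0.86 at 2 h and at 1.17, 0.58, 0.73 and 0.63 at 4 h. The groups did not overlap, and the log2 difference was 1.23 ± 0.21 (SE, limma adjusted p = 0.00158), called in all 8 fits that left out 1 array. The median of the list was 0.27, with 15 of 23 values above 0, against 0.03 and 53.9% for all genes. Of the 23, 5 had an unadjusted limma p below 0.05, against 13.2% of all genes. In oxidative phosphorylation, 7 of 35 tested genes had values above 0 and the median was -0.29, yet 0 were called (limma; 4 had an unadjusted p below 0.05). The smallest p there was that of Ndufb2, a subunit of respiratory complex I, with a log2 difference of -0.65 and an adjusted p of 0.109.

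Among 21 cytokine genes tested, 2 rose and 3 had an unadjusted limma p below 0.05, against 1.13% and 13.2% of all genes. Tnfsf13b encodes BAFF, the survival factor of B cells, and went from -0.74, -0.80, -1.14 and -1.11 to 0.81, 0.43, -0.13 and -0.25, a log2 difference of 1.16 ± 0.24 (SE, limma adjusted p = 0.00868). The groups lay apart. Without 4 h repeat 1 its adjusted p was 0.0576. Il1rn, the antagonist of the interleukin-1 receptor, went from 1.63, 1.78, 1.64 and 1.26 to 2.54, 2.47, 2.28 and 2.51, with little scatter at either time and no overlap (log2 difference 0.87, limma adjusted p = 0.0265), though leaving out 1 array ended the call in 5 of 8 fits (up to 0.137, without 2 h repeat 4). Tnf itself had a log2 difference of 0.39 and was not called.

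Of 22 chemokine genes, 1 rose, Ccl9, a chemokine of myeloid cells, with a log2 difference of 1.06 (limma adjusted p = 0.0438) and overlapping groups. Of 16 targets and inhibitors of NF-kB, 1 rose, Tnfaip2, an early target of tumour necrosis factor, with 0.82 (limma adjusted p = 0.031), and the list median was 0.30. Itgal, the alpha chain of the lymphocyte integrin LFA-1, was the 1 of 11 genes of quiescence and homing that rose, with 0.83 (limma adjusted p = 0.0154). Asns, asparagine synthetase, was the 1 of 20 genes of the unfolded protein and amino acid response, with 0.85 (limma adjusted p = 0.0377), and Tek, the angiopoietin receptor of endothelium, the 1 of 13 stromal and endothelial markers, with 0.90 (limma adjusted p = 0.0289). Each of these calls was lost when some single arrays were left out, in 6 of the 8 fits for Ccl9, 4 for Tnfaip2, 3 for Itgal, 7 for Asns and 5 for Tek. The highest adjusted p-values over those fits were 0.21 for Ccl9, 0.149 for Tnfaip2, 0.0904 for Itgal, 0.226 for Asns and 0.109 for Tek. With all arrays, an unadjusted limma p below 0.05 was seen for 4 of the 22 chemokine genes and 5 of the 16 NF-kB genes. It was seen for 3 of the 11 homing genes, 2 of the 20 unfolded protein genes and 1 of the 13 stromal markers. Over all genes the share was 13.2%, and 1.13% of all genes were called higher.

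Of 30 immediate early genes tested in this interval, 1 fell and 0 rose, while 0.450% of all genes were called lower and 1.13% higher. Values above 0 were seen for 11 of the 30, against 53.9% of all genes. An unadjusted limma p below 0.05 was seen for 7 of the 30, against 13.2% of all genes. The list median was -0.18 in medium, -0.24 with the control ODN and -0.20 with the CpG ODN. With the control ODN, 1 of 29 rose and 3 fell, against 0.699% and 0.602% of all genes. With the CpG ODN, 0 of 30 rose and 2 fell, against 0.655% and 0.312%. The one that fell in medium was Jund, a subunit of the AP-1 transcription factor. It was at 2.36, 1.85, 1.68 and 2.01 at 2 h and 0.77, 0.93, 1.68 and 0.93 at 4 h. The 4 h repeat 3 lay at the lower edge of the 2 h values. Its log2 difference was -0.90 ± 0.21 (SE, limma adjusted p = 0.0188), with the call lost in 5 of the 8 fits that left out 1 array (up to 0.0895, without 4 h repeat 1). Fos stood at -1.38, -1.52, -1.06 and -1.32 at 2 h and at -1.47, -1.46, -1.28 and -1.70 at 4 h, with overlapping groups and a log2 difference of -0.15 ± 0.25 (SE, limma). Jun, its partner in AP-1, had a log2 difference of 0.01 ± 0.21 (SE, limma). Egr1, a zinc finger factor of the same class, had 0.53, the phosphatase gene Dusp1 -0.48 and the nuclear receptor gene Nr4a1 -0.20, and none was called. The SEs were 0.23 for Egr1 and 0.31 for Dusp1; the groups of Egr1 did not overlap and its unadjusted limma p was 0.0301.

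The lists of heat shock and of glucocorticoid-responsive genes gave no calls in medium. Of 13 heat shock and chaperone genes, 0 were called by limma and 1, Hspa1a, had an unadjusted p below 0.05. Over all genes tested these shares were 1.58% and 13.2%. Hspa1a, an inducible Hsp70, was at 2.47, 1.25, 2.10 and 0.03 at 2 h and at 3.05, 2.31 and 3.04 in repeats 1 to 3 at 4 h, with repeat 4 higher still. Its groups overlapped, and the log2 difference was 1.69 ± 0.53 (SE, limma adjusted p = 0.109). Hspa1b, its near-identical neighbour, with which it may share hybridising cDNA, had -0.30. Tsc22d3, which glucocorticoids induce, had a log2 difference of -0.41 and was not called, like the rest of the 15 glucocorticoid-responsive genes tested (3 with an unadjusted p below 0.05).

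The remaining functional lists held 2 falls, while 0.450% of all genes tested were called lower and 1.13% higher. Psmb9, an interferon-induced subunit of the proteasome, was the 1 of 30 interferon response genes called, with a log2 difference of -1.44 (limma adjusted p = 0.0478, and 0.198 without 2 h repeat 3) and overlapping groups. Polr1a, given above, was the 1 of 32 genes of ribosome biogenesis. Unadjusted limma p-values below 0.05 were seen for 8 of the 30 and 3 of the 32, against 13.2% of all genes. Of the 30 interferon response genes, 13 had values above 0. Their groups did not overlap for 4 in the higher direction and 2 in the lower, against 6.74% and 3.89% of all genes. Of 31 cell cycle genes, 36 ribosomal protein genes, 19 of lymphocyte activation, 21 of apoptosis and survival and 15 of MHC class II presentation, limma called 0, with 4, 1, 3, 1 and 3 unadjusted p-values under 0.05 and list medians from -0.28 for MHC class II to 0.11 for ribosomal proteins. Of 15 oxidative stress genes, 11 targets of p53, 18 genes of cholesterol and fatty acid synthesis and 13 of the circadian clock, limma called 0, with 1, 2, 3 and 1 unadjusted p-values under 0.05. Cd69, the early activation antigen of lymphocytes, had a log2 difference of -0.64 ± 0.40 (SE, limma) and was not called.

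Markers of the lymphocytes that make up most of the spleen stayed without calls. Of 14 B cell markers and 13 T cell markers, 0 were called by limma (2 and 0 had an unadjusted p below 0.05), with medians of 0.04 and -0.05. Over all genes tested, limma called 1.58%, and 13.2% had an unadjusted p below 0.05. With lists this short, 0 calls lie near that share and do not show that the markers were steady. For 2 of the B cell markers all 4 h values lay below those at 2 h, and for 0 above, against 3.89% and 6.74% of all genes. The smallest p among B cell markers was that of Cr2, complement receptor 2, with a log2 difference of -0.72 and a limma adjusted p of 0.176. Lists for NK cells, dendritic cells, neutrophils, erythroid cells, platelets and plasma cells held between 6 and 12 tested genes each and 0 calls, with 0, 2, 0, 1, 2 and 2 genes at an unadjusted p below 0.05. Their medians lay between -0.25 and 0.22. Of 15 markers of other tissues in the reference, limma called 0, with 3 unadjusted p-values under 0.05 and a median of 0.08.

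**Figure D2:**
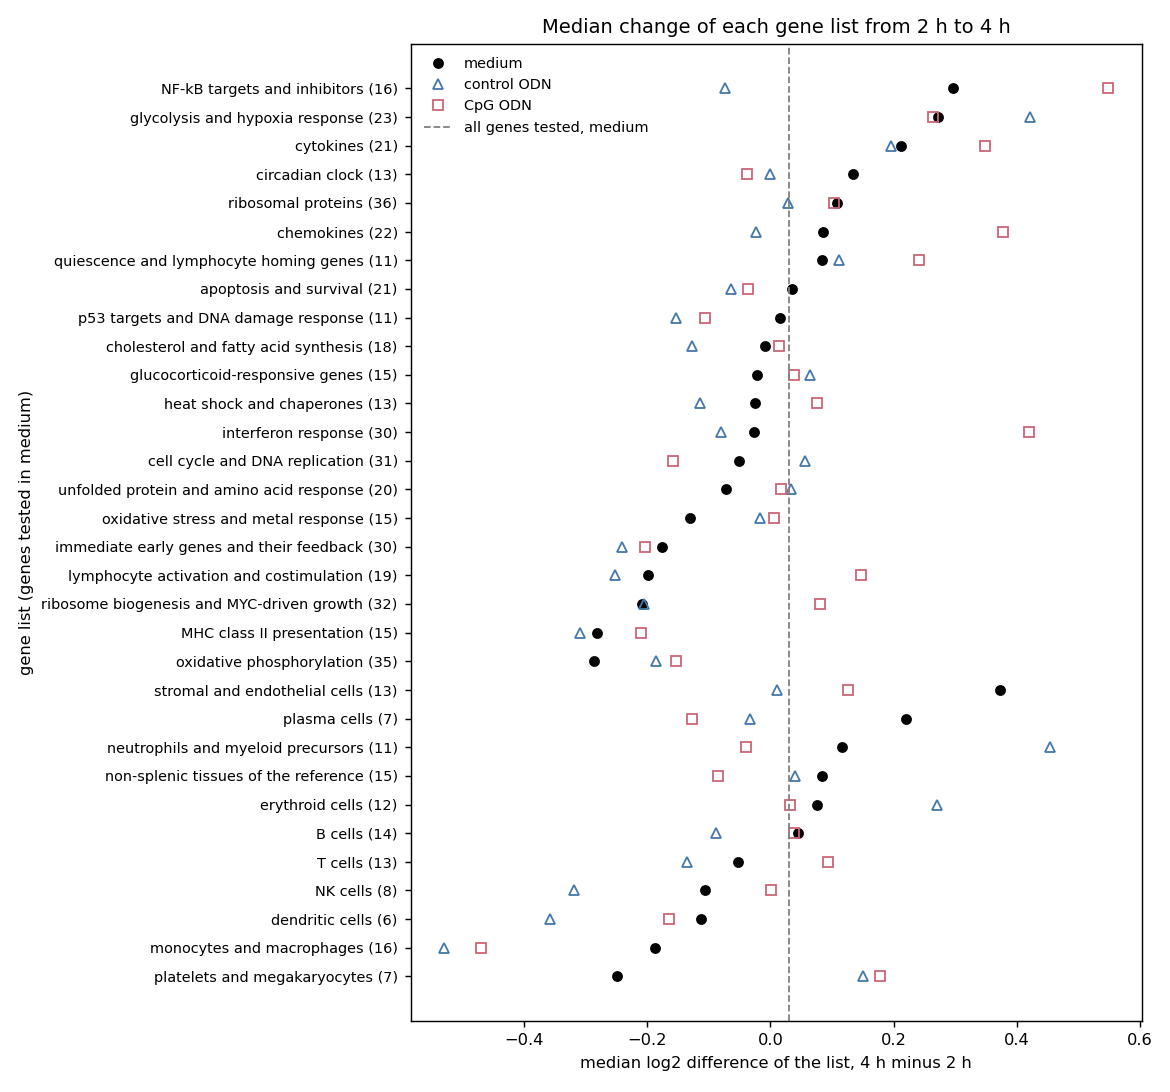
Median log2 difference, 4 h minus 2 h (horizontal axis), of each gene list (vertical axis, with the number of genes tested in medium), for medium, control ODN and CpG ODN cultures; the dashed line is the median of 0.03 over all genes tested in medium. Within medium, the list medians run from -0.29 for oxidative phosphorylation to 0.37 for stromal and endothelial cells.

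The cultures with ODN gave the same interval on separate arrays, although the labels do not say whether they came from the same spleens. Their arrays of early database number were all at 2 h: control ODN repeats 1 and 2 and CpG ODN repeat 1. In medium the early array was at 4 h. The array of control ODN 2 h repeat 4 measured 7908 probes, the fewest of the series. From 2 h to 4 h, limma called 121 of 9303 genes (1.30%) with the control ODN, 65 higher (0.699%) and 56 lower (0.602%). With the CpG ODN it called 93 of 9625 (0.966%), 63 higher (0.655%) and 30 lower (0.312%). All 108 rises of the medium cultures had a positive difference in both, with medians of 1.14 in medium, 0.85 with the control ODN and 0.71 with the CpG ODN. These genes were chosen by their calls in medium, which favours a larger median there. The medians therefore do not show that the rise was weaker with an ODN. Of the falls, 37 of 40 tested were negative with the control ODN and 36 of 43 with the CpG ODN. The same sign was seen for 68.5% of all genes with the control ODN and for 63.4% with the CpG ODN. Genes called in both cultures numbered 57 for the control ODN, which is 38.5% of the medium calls that could be compared and 47.1% of the control ODN calls. For the CpG ODN they numbered 40, which is 26.5% and 43.0%.

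Called with the same sign in all 3 cultures were 26 rises (0.284% of 9165 genes tested in all) and 11 falls (0.120%). In all 8 fits that left out 1 medium array, 15 of these rises and 7 of these falls were called. The falls were C1qb, Fcna, Cfp, Vcam1, Antxr2, Axl, Hfe, C6, Jund, Cadm1 and Ada. Vcam1 fell by 1.40 in medium, 1.70 with the control ODN and 2.01 with the CpG ODN on the log2 scale, and Hfe by 1.22, 1.34 and 1.66. Cfp fell by 1.47, 1.27 and 1.14, and C1qb by 2.16, 1.52 and 1.21. Cadm1, a cell adhesion molecule, and Ada, adenosine deaminase, which degrades adenosine, had log2 differences in medium of -0.83 and -0.65. They are named, like the rises that follow, after their values were seen.

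The 26 shared rises included Wtap, Rpp25, Itfg1, Ero1a, Slc33a1, Hnrnpll, Dyrk2, C3ar1 and Il1rn. Ero1a rose by 1.69 in medium, 1.78 with the control ODN and 1.44 with the CpG ODN, and Wtap by 2.26, 2.00 and 1.62. For Il1rn the differences were 0.87, 0.94 and 1.91. The coagulation genes F10, encoding factor X, and Tfpi, encoding the tissue factor pathway inhibitor, were also among the 26, with 1.14 and 0.92 in medium. Ufl1, the ligase for the ubiquitin-like modifier UFM1, rose by 0.96, 1.04 and 0.98, nearly the same amount in each culture. Others were genes best known from single tissues or functions outside the spleen, such as Gys2, the glycogen synthase of liver (1.48 in medium), Kcnc1, a neuronal potassium channel (1.37), and Gpx5, a glutathione peroxidase of the epididymis (1.23).

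**Figure D3:**
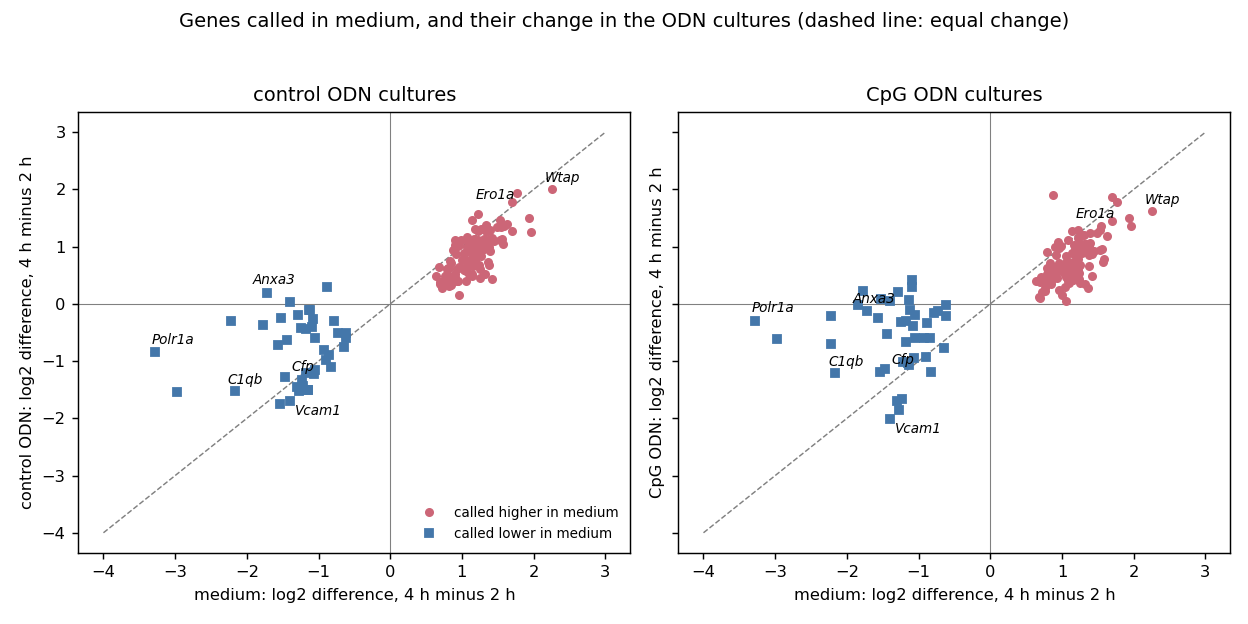
Log2 difference, 4 h minus 2 h, of the genes called in medium (horizontal axes) against their difference in the control ODN cultures (left) and CpG ODN cultures (right); circles rose and squares fell in medium, and the dashed line marks equal change. All 108 rises lie above 0 in both panels, while some falls, such as Anxa3 at 0.19 and -0.13, lie near 0.

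No gene was called as changing differently in medium and in the ODN cultures. The test of the difference between changes called 0 of 9204 genes against the control ODN (limma; 205 at an unadjusted p below 0.05, 2.23%) and 0 of 9517 against the CpG ODN (388, 4.08%). Among the genes called in medium, Anxa3, an annexin named after its values were seen, had the smallest p against the control ODN: its log2 difference was -1.72 in medium and 0.19 with the control ODN (unadjusted p = 0.000462, limma adjusted p = 0.999). Gpx3, the plasma glutathione peroxidase, likewise named after its values were seen, had -1.39 in medium and 0.03 with the control ODN. Polr1a, Mak, Nupr1l and Igbp1 had differences with the CpG ODN of -0.29, -0.62, 0.23 and 0.20, smaller in size than in medium. They were named by their falls in medium, which favours a larger size there. Their limma tests of the difference between changes did not pass after adjustment. Hspa1a had a difference of 1.69 in medium, 2.41 with the control ODN (limma adjusted p = 0.0156) and 2.39 with the CpG ODN (limma adjusted p = 0.0333). The tests of the difference between changes gave unadjusted limma p-values of 0.344 and 0.374.

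At 8 h in medium, measured on 3 further arrays, the genes called at 4 h had medians further from 0 in the same direction. The 8 h differences share the 2 h or the 4 h arrays with the comparison above, so they are given side by side and are no independent support. Against 2 h, 1379 of 9475 genes (14.6%) were called at 8 h, 877 higher (9.26%) and 502 lower (5.30%), among them all 108 rises and 41 of the 43 falls. The median of the rises was 1.14 at 4 h and 1.59 at 8 h, and that of the falls -1.18 and -1.39. Against 4 h, 70 of 9577 genes (0.731%) were called at 8 h, 37 higher (0.386%) and 33 lower (0.345%). Of the genes called at 4 h, 6 rises and 3 falls moved further by that test and 0 moved back.

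C1qb was lower again at 8 h, at 2.32 ± 0.15 (SD, n = 3), than at 4 h (limma adjusted p = 0.0399), as was Vcam1 at -1.50 ± 0.39 (SD, n = 3; limma adjusted p = 0.0167). Jund stood at 0.10 ± 0.23 (SD, n = 3; limma adjusted p = 0.0369 against 4 h). Rpp25 was at 2.35 ± 0.55 (SD, n = 3) and Wtap at 2.52 ± 0.57 (SD, n = 3), not called against 4 h. Tnfsf13b, with 1.17 ± 0.42 (SD, n = 3), had a limma adjusted p of 0.0634 against 4 h. For glycolysis and hypoxia response the list median was 0.27 at 4 h and 0.64 at 8 h, with 1 and then 9 of 23 genes higher than at 2 h. Pgk1, phosphoglycerate kinase, had log2 differences of 0.77 at 4 h and 2.59 at 8 h, and Hk2, hexokinase 2, of 0.34 and 1.23. Both were called at 8 h only, and they are named after their values were seen.

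**Figure D4:**
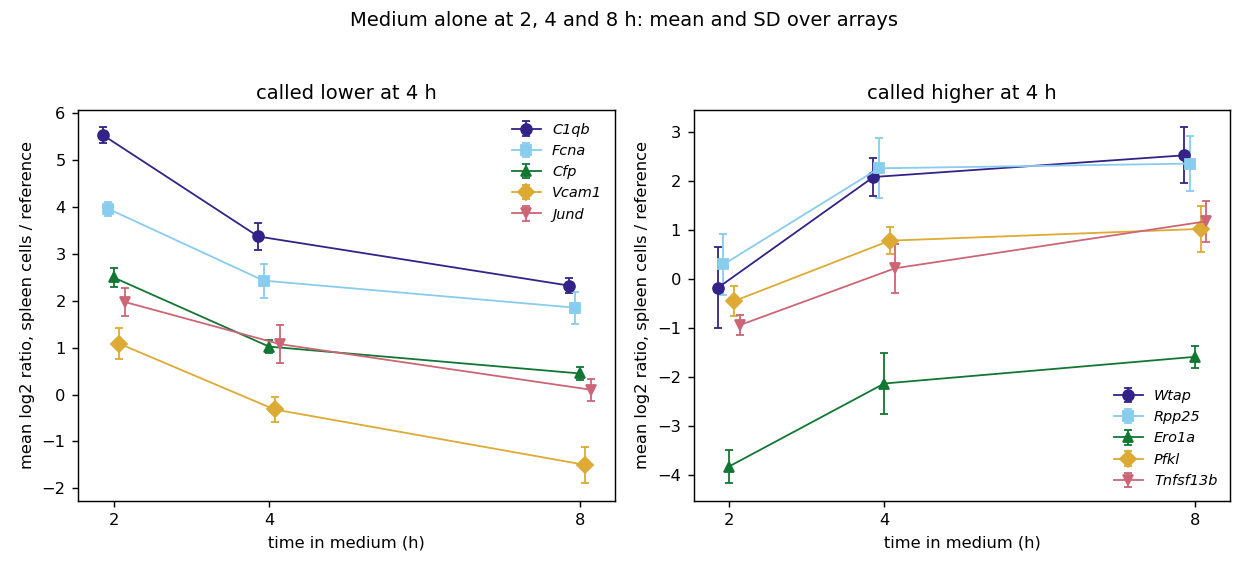
Mean log2 ratio over the reference (vertical axes) with SD, in medium at 2 h, 4 h (4 arrays each, fewer where a gene was not measured) and 8 h (3 arrays), for 5 genes that fell and 5 that rose; points are set slightly apart along the time axis. C1qb goes from 5.53 at 2 h to 3.37 and 2.32, and Wtap from -0.18 to 2.07 and 2.52.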

How the data were processed

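RNA of spleen cells (Cy5) was hybridised with a mouse reference RNA (Cy3) on 33 two-colour arrays, per the labels. The authors deposited 1 log ratio per probe and array, read here as log2. How spots were background-corrected and normalized is not stated in the labels used. The table has 16720 probes, 11303 with a value on at least 1 array; the number of arrays limits precision. Platform annotation named 14656 probes, and the probe with the fewest missing values stood for a gene (9672 genes).

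Arrays were centred on their medians. Group means over all 9 groups were fitted with limma 3.58.1 (R 4.3.3), with Benjamini-Hochberg adjustment at 0.05 and at least 2 measured arrays in each compared group. The fit was tested on simulated data.

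The named genes were the 10 largest rises and falls on all 8 arrays, up to 3 called members per pathway list and 2 per cell type list (else the smallest p), and early response genes; Klf2 had no value. The members, lists and comparisons were chosen with earlier results of these data known.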

Additional observations from a re-analysis of the deposited data

Results flagged for a closer look

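Among 108 groups of 4 arrays checked, 5 held 1 array far from the other 3 by Dixon's criterion, near the 1 in 20 that chance gives. Repeat 2 at 2 h stood out for 3 genes: Vcam1 at 1.58 against 0.89 to 0.97, Axl at -0.85 against -1.58 to -1.53, and Slc33a1 at -0.24 against -1.23 to -1.08. Repeat 1 at 4 h stood out for 3110070M22Rik, at 2.44 against 1.04 to 1.25. Repeat 4 at 4 h stood out for Nr4a1, at 0.41 against -0.49 to -0.43.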

How the results depend on the processing

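Against 151 genes called in medium out of 9560 tested, 4 were called when only the compared groups were fitted (0 rises, 4 falls) and 1445 with array weights, which held all 151 and put 61.3% of calls higher against 71.5%. Without the 4 arrays of early database number the count was 44 (61.4% higher). With 1 array left out it ran from 44 to 216. For the control ODN, the count of 121 became 361 with array weights and ran from 48 to 199 with 1 array left out. The test of medium against CpG ODN change called 38 genes with array weights and 0 otherwise. With the repeat number as a replicate block, 0 genes were called within the compared groups (1343 at an unadjusted p below 0.05) and 190 over all groups. Arrays of the same number did not deviate together at every number (correlations 0.21, 0.14, -0.10 and 0.06; only repeat 4 correlated best with its own number), so the numbers are not taken as pairs. No sign of a named gene called in medium turned under the alternatives that gave it a value, 20 for each gene except Polr1a (16), C1qb and Psmb9 (19 each). The number of arrays limits what could be called. Signal over background was not analysed here.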
